A study of Mus musculus with 3 samples.

Results

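C1qa, C1qb, C1qc, Apoe, Trem2, Ms4a7 and Pf4 are genes by which tissue macrophages are often recognised in single-cell data, and here they are 7 of the 32285 genes counted. They were chosen by name and not by a threshold, and all 7 were found in the count files by symbol and identifier. The products of C1qa, C1qb and C1qc assemble into C1q, the recognition part of the classical complement pathway, which binds antibody complexes and dying cells and which macrophages secrete in many tissues. Apolipoprotein E carries lipids out of cells, and TREM2 is a surface receptor for lipids and cell debris that signals through the adaptor protein made by Tyrobp. Ms4a7 encodes a membrane-spanning protein of macrophages and microglia, and Pf4 encodes a CXC chemokine stored in platelets and also made by some macrophages.

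The libraries come from MCA205 LA-OVA tumours, a transplanted mouse fibrosarcoma that carries the antigen OVA, grown in both flanks of mice of C57BL/6J background and harvested on day 5. The groups are WT mice, sGSN-/- mice, which lack secreted gelsolin, and sGSN-/-Clec9a-/- mice, which also lack the dendritic cell receptor DNGR-1. Tumours of pooled mice of both sexes gave 1 library a genotype, so no genotype has a replicate. The sort took live CD45+ CD11c+ MHCII+ cells without a set of lymphoid markers (NK1.1, CD3e, B220 and Ly6D among them), the myeloid and red cell markers Ly6G, Siglec-F and TER-119, and CD88, the product of C5ar1, and the sorted pre-cDCs, cDC1s and cDC2s of a genotype were pooled.

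Each droplet barcode carries unique molecular identifiers (UMIs), which count captured transcripts once. The WT library held 176578136 UMIs in 12763 barcodes, the sGSN-/- library 109270958 UMIs in 8173 barcodes and the sGSN-/-Clec9a-/- library 113411930 UMIs in 9273 barcodes. From here on, values of the 3 libraries are given in the order WT, sGSN-/-, sGSN-/-Clec9a-/-. Barcodes with at least 1000 detected genes were kept, which left 11382, 7207 and 7982, with medians of 14023, 13162 and 11904.5 UMIs. A deposited table names cDC1s and their clusters, and 2291, 1668 and 1735 of the kept barcodes are in it. Of the same barcode sequences, 20 or 21 occurred in each pair of libraries and 0 in all 3.

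The 9091, 5539 and 6247 kept barcodes outside that table were grouped by whether at least 1 UMI of each of 4 marker genes was seen. Ncr1 encodes an NK cell receptor, Xcr1 a chemokine receptor of cDC1s, Cd209a a lectin of cDC2s and monocyte-derived cells, and Flt3 the growth factor receptor (CD135) of dendritic cells and their precursors. Barcodes with Ncr1 were set apart first, with or without another of the 4 genes, then those with Xcr1, and the rest were divided by Cd209a and Flt3. The group with none of the 4 genes held 2416, 1275 and 1621 barcodes, the group with Flt3 only 1042, 514 and 516, the group with Cd209a only 1762, 727 and 1127, and the group with both 1810, 759 and 915. Since a marker can be missed in a shallow barcode, these groups mark detection and not absence of expression. The 7 genes themselves had no part in the grouping.

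Levels are counts per 1000000 UMIs of the group (CPM), summed within each library. Means are given with the SD over the 3 libraries (n = 3), which also contains any difference between genotypes. Values of single libraries carry exact 95% intervals, Poisson for levels and Clopper-Pearson for shares, and these cover counting error only. The genotype labels were checked in the cDC1s first. Clec9a, the gene of DNGR-1, was counted at 168.5 CPM (164 to 173) in WT, 168.6 CPM (163 to 174) in sGSN-/- and 0.0934 CPM (0.0113 to 0.338, from 2 UMIs) in sGSN-/-Clec9a-/- cDC1s. Gsn was at 151.6, 169.5 and 166.7 CPM, and since the counts do not separate the secreted form, Gsn does not check the sGSN-/- label.

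The genes of C1q were far higher outside the cDC1 table than inside it, and highest where none of the 4 marker genes was seen. C1qa (ENSMUSG00000036887) was at 1634, 1362 and 1369 CPM in that group, C1qb (ENSMUSG00000036905) at 1982, 1695 and 1723 CPM, and C1qc (ENSMUSG00000036896) at 928, 719 and 724 CPM. With Flt3 only, the levels of C1qa were 724, 752 and 501 CPM, and the 3 libraries of that group did not overlap with those of the group above. The means over the libraries stood in the same order for all 3 genes. For C1qa they were 1455 ± 155 CPM with none of the 4 genes, 659 ± 138 with Flt3 only, 335 ± 10.9 with Cd209a only, 253 ± 54.0 with Xcr1, 247 ± 80.3 with Cd209a and Flt3, 183 ± 23.3 with Ncr1 and another gene, and 118 ± 39.4 CPM with Ncr1 only. The steps from none of the 4 genes to Flt3 only, to Cd209a only and to Xcr1 were larger than the SDs, and the Xcr1 group and the group with Cd209a and Flt3 could not be told apart by their spread. C1qb and C1qc gave the same order, with 1800 ± 158 and 790.4 ± 119 CPM at its top and 152 ± 39.6 and 70.3 ± 24.9 CPM with Ncr1 only. In the cDC1s of the table C1qa was at 12.01, 4.94 and 7.48 CPM, C1qb at 15.4, 7.75 and 11.3 CPM, and C1qc at 5.85, 2.85 and 3.64 CPM. All 3 genes were thus lower in the cDC1s of each library than in the barcodes with Ncr1 only.

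Apoe (ENSMUSG00000002985), the gene of the lipid carrier, followed C1q with a steeper first step. It was at 2157, 1723 and 1686 CPM with none of the 4 genes and at 560 (548 to 572), 752 and 410.2 CPM with Flt3 only. With Cd209a only it was at 432, 389 and 361 CPM, so that the sGSN-/- library stood highest of the 3 with Flt3 and the WT library with Cd209a. The means were 1855 ± 262, 574 ± 171 and 394 ± 36.0 CPM in these groups, followed by 320.4 ± 55.7 with Xcr1, 293 ± 108 with Ncr1 and another gene, 197 ± 45.0 with Cd209a and Flt3, and 126 ± 53.9 CPM with Ncr1 only. Below the first step, each neighbouring pair in this order overlapped within the SDs. The cDC1s of the table carried Apoe at 33.3, 17.3 and 22.1 CPM.

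Trem2 (ENSMUSG00000023992), the lipid receptor, was at 226, 174 and 193 CPM with none of the 4 genes, at 90.6, 67.3 and 66.8 CPM with Flt3 only and at 46.9, 47.4 and 52.6 CPM with Cd209a only. These 3 groups did not overlap. Its mean was 36.8 ± 5.05 CPM with Xcr1, 32.3 ± 7.67 with Cd209a and Flt3, 25.9 ± 3.81 with Ncr1 and another gene, and 16.3 ± 4.68 CPM with Ncr1 only. In the cDC1s of the table Trem2 gave 74, 13 and 43 UMIs, a level of 2.27 (1.78 to 2.85), 0.554 (0.295 to 0.947) and 2.01 (1.45 to 2.71) CPM.

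Ms4a7 (ENSMUSG00000024672), the membrane-spanning protein, was at 149.6, 79.4 and 93.7 CPM with none of the 4 genes and at 48.5, 29.9 and 17.7 CPM with Flt3 only. The WT library was highest in both groups. Further down, the means of 19.4 ± 7.90 CPM with Cd209a only, 18.0 ± 6.09 with Xcr1, 16.6 ± 11.9 with Ncr1 and another gene, 11.995 ± 9.27 with Ncr1 only and 11.4 ± 3.88 CPM with Cd209a and Flt3 overlapped from neighbour to neighbour. The cDC1s gave 32, 2 and 17 UMIs of Ms4a7.

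Pf4 (ENSMUSG00000029373), the chemokine, was at 70.9, 43.0 and 56.5 CPM with none of the 4 genes, and at 20.2, 13.6 and 4.66 CPM with Flt3 only. The first group did not overlap with any other. The means of the other groups ran from 12.8 ± 7.81 CPM with Flt3 only through 10.8 ± 6.14 with Cd209a only, 8.61 ± 2.86 with Xcr1, 6.93 ± 2.67 with Cd209a and Flt3 and 6.47 ± 6.95 with Ncr1 and another gene to 4.85 ± 2.42 CPM with Ncr1 only, with overlap between neighbours. The cDC1s gave 36, 5 and 7 UMIs of Pf4. In each of the 7 genes the group with none of the 4 markers stood highest of the 7 groups and 12 cDC1 clusters.

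**Figure D1:**
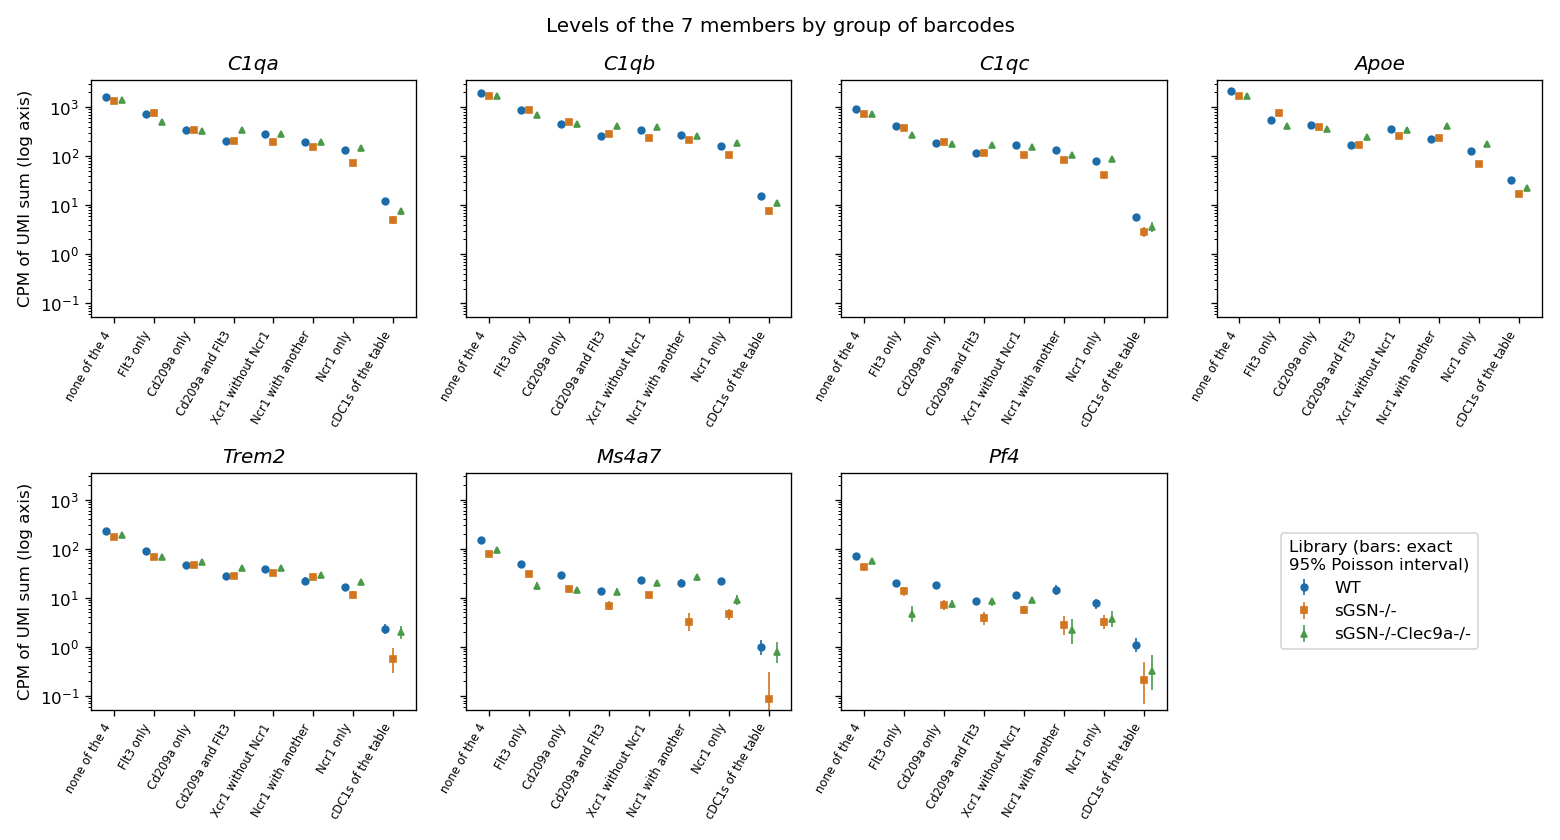
Level of each of the 7 genes in CPM (log axis) in the 7 groups of barcodes outside the cDC1 table and in the cDC1s of the table, 1 point a library with its exact 95% Poisson interval. In each panel the group with none of the 4 marker genes is highest, as for C1qa at 1634, 1362 and 1369 CPM, and the cDC1s of the table are lowest.

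Levels average over barcodes, so the share of barcodes with at least 1 UMI was also counted, at a common depth of 4000 UMIs drawn from each barcode. Of the barcodes outside the table, 524, 719 and 557 were shallower and were left out, and the groups stayed those set on the full counts. With none of the 4 genes, 64.3%, 52.4% and 55.1% of barcodes had a UMI of C1qa, C1qb or C1qc, and without thinning the shares were 68.8%, 50.9% and 58.2%. NK cells are a type that should lack C1q, and of the barcodes with Ncr1 only 12.6%, 12.1% and 14.1% had such a UMI (26.8%, 20.6% and 21.5% without thinning), at a median depth of 10134, 8267 and 7056 UMIs against 13623, 10695 and 10705 with none of the 4 genes. The cDC1s of the table, with medians of 14139, 14281 and 12340 UMIs, gave 9.60%, 5.56% and 6.57% (26.7%, 18.1% and 18.4% without thinning). This share of the cDC1s is below that of the Ncr1 barcodes in each library. The source of the C1q UMIs was not tested in either group. A few barcodes with many C1q UMIs are described with the clusters. Apoe was seen in 39.8%, 28.8% and 31.1% of barcodes with none of the 4 genes, in 10.3% (8.12 to 12.8), 4.58% (3.36 to 6.08) and 6.77% (5.03 to 8.88) of those with Ncr1 only and in 8.45% (7.33 to 9.67), 5.81% (4.71 to 7.06) and 6.39% (5.26 to 7.67) of the cDC1s. The intervals of the last 2 groups overlapped in every library. Trem2 was seen in 42.2%, 31.2% and 33.3% of barcodes with none of the 4 genes, against 2.14%, 2.34% and 2.40% with Ncr1 only and 0.711%, 0.250% and 0.843% of the cDC1s. Ms4a7 (17.2%, 10.99% and 12.3%) and Pf4 (8.41%, 5.29% and 6.15%) were seen in fewer barcodes of that group, and with Ncr1 only both stood under 2% in each library. The cDC1s of the table were below the barcodes with Ncr1 only for Trem2, Ms4a7 and Pf4 in 3 of 3 libraries.

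The members' UMIs were concentrated in few barcodes. Barcodes with none of the 4 genes made up 21.2%, 17.7% and 20.3% of all kept barcodes and held 61.0%, 53.9% and 54.7% of the C1qa UMIs, 66.2%, 56.7% and 57.8% of the Apoe UMIs and 61.6%, 62.0% and 68.2% of the Pf4 UMIs. The cDC1s of the table, with 20.1%, 23.1% and 21.7% of the barcodes, held at most 0.457% of any C1q gene and at most 1.002% of Apoe. Outside the table, 50% of the C1qa UMIs came from 4.95%, 3.09% and 3.81% of barcodes and 50% of the Apoe UMIs from 2.08%, 1.28% and 1.65%. For Pf4 the same part came from 0.539%, 0.361% and 0.352% of barcodes. Single barcodes reached 673, 648 and 511 UMIs of the 3 C1q genes and 785, 773 and 723 UMIs of Apoe. Barcodes with at least 20 C1q UMIs of 4000, which are 13.03%, 8.11% and 9.72% of the thinned barcodes, held 81.6%, 77.8% and 77.7% of the C1q UMIs, 66.3%, 65.5% and 65.1% of the Apoe UMIs, 60.9%, 60.1% and 53.0% of the Trem2 UMIs and 79.4%, 72.0% and 68.0% of the Ms4a7 UMIs. Even in the group with none of the 4 genes 35.7%, 47.6% and 44.9% of barcodes had 0 C1q UMIs of 4000, and 34.7%, 26.3% and 26.9% had 20 or more. With Ncr1 only, 2.28%, 1.12% and 1.97% of barcodes had 20 or more, and these held 75.8%, 66.9% and 73.9% of the C1q UMIs of that group. Scrublet scores were among the highest 6% of the library in 56.3%, 45.5% and 35.7% of them, against 3.03%, 2.92% and 3.38% of all barcodes with Ncr1 only. Whether these barcodes hold more than 1 cell was not tested.

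The tests compare summed UMIs of detection groups with the 3 libraries as replicates, over 12869 genes that passed the low-count filter, the 7 members among them. The comparisons share groups and are not independent of each other. The first asks how barcodes without the dendritic cell receptor Flt3 differ from those with it when Cd209a is not seen. All 7 members were higher without Flt3, in 3 of 3 libraries each, where 12.2% of all genes tested were called higher, 8.94% lower and 21.2% in either direction. Their median log2 fold change was 1.41, against 0.02 over all genes tested. The log2 fold change was 1.17 for C1qa (SE 0.24, adjusted p = 0.0013), 1.19 for C1qb (SE 0.20, adjusted p = 0.00027) and 1.19 for C1qc (SE 0.24, adjusted p = 0.0013). It was 1.73 for Apoe (SE 0.29, adjusted p = 0.00027), 1.41 for Trem2 (SE 0.18, adjusted p = 1.9e-05), 1.72 for Ms4a7 (SE 0.47, adjusted p = 0.012) and 2.08 for Pf4 (SE 0.45, adjusted p = 0.0024). The calls of the C1q genes, Apoe and Trem2 held without any 1 library. Without the sGSN-/-Clec9a-/- library Ms4a7 was at 1.53 (adjusted p = 0.12) and Pf4 at 1.73 (adjusted p = 0.056), neither past the threshold. Over all genes 2722 were called, 1582 without the WT library and 1579 without the sGSN-/- library.

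Among barcodes with Cd209a the same contrast gave smaller values for each member, and none passed the threshold. C1qa was at 337, 346 and 324 CPM without Flt3 and at 201, 199.99 and 339 CPM with it, so the sGSN-/-Clec9a-/- library ran the other way, as it did for Pf4. The other 5 genes were higher without Flt3 in 3 of 3 libraries. The log2 fold change was 0.45 for C1qa (SE 0.24, adjusted p = 0.33), 0.53 for C1qb (SE 0.20, adjusted p = 0.14), 0.50 for C1qc (SE 0.24, adjusted p = 0.28) and 1.01 for Apoe (SE 0.29, adjusted p = 0.053). It was 0.62 for Trem2 (SE 0.19, adjusted p = 0.068), 0.79 for Ms4a7 (SE 0.52, adjusted p = 0.46) and 0.68 for Pf4 (SE 0.49, adjusted p = 0.51). So 0 of 7 members were called by edgeR's test, where 4.47% of all genes were, with 3 members at an unadjusted p under 0.05 and 2 called by DESeq2 (Apoe 1.01, adjusted p = 0.046, and Trem2 0.61, adjusted p = 0.039). With the library as a block 3 members were called, C1qb at 0.56 (adjusted p = 0.031), Apoe at 1.03 (adjusted p = 0.014) and Trem2 at 0.63 (adjusted p = 0.0071). Over all genes 575 were called, 1605 with the library block, 15 without the WT library, 19 without the sGSN-/- library and 201 without the sGSN-/-Clec9a-/- library, and without that last library Apoe was called, at 1.29 (adjusted p = 0.027). With barcodes thinned to 4000 UMIs and grouped again 4 members were called, C1qa at 1.52 (adjusted p = 0.0013), C1qb at 1.32 (adjusted p = 0.00047), C1qc at 1.33 (adjusted p = 0.018) and Apoe at 1.21 (adjusted p = 0.016). That setting changes depth, barcodes and grouping together, and which of these matters was not tested. Over all settings the members' adjusted p ran from 0.00047 (C1qb at 1.32, with barcodes thinned) to 0.89 (Pf4 at 0.24, without the WT library).

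Whether the contrast itself differed with Cd209a was tested as a difference of log2 fold changes. It lay between 0.66 (C1qb, SE 0.28, adjusted p = 0.32) and 1.40 (Pf4, SE 0.67, adjusted p = 0.37), and Trem2 had the smallest adjusted p, at 0.79 (SE 0.26, adjusted p = 0.16). In edgeR's test 0 members were called, where 1.42% of all genes were, with 4 at an unadjusted p under 0.05 and 0 called by DESeq2. A difference between the contrasts is therefore not shown for any member by this test, and the values varied with the setting. With barcodes thinned and grouped again Apoe was called at 1.52 (adjusted p = 0.039), while C1qa was at 0.03, and over all settings Pf4 ran from 0.17 to 2.24. With the library as a block Trem2 was called at 0.77 (adjusted p = 0.027) and Pf4 at 1.5 (adjusted p = 0.039). The count over all genes was 183, and it was 629 with the block, 46 without the WT library, 1 without the sGSN-/- library and 60 without the sGSN-/-Clec9a-/- library.

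Detection of Cd209a, in barcodes without Flt3, went with lower levels of all 7 members. All were called lower and were lower in 3 of 3 libraries, where 10.4% of all genes were called lower and 18.4% either way. The log2 fold change was -2.11 for C1qa (SE 0.24, adjusted p = 5.8e-06), -2.22 for Apoe (SE 0.30, adjusted p = 2.6e-05), -2.0 for Trem2 (SE 0.18, adjusted p = 3.9e-07), -2.42 for Ms4a7 (SE 0.48, adjusted p = 0.0012) and -2.32 for Pf4 (SE 0.44, adjusted p = 0.0008). C1qb and C1qc were at -1.94 and -2.07. In the same contrast 11 of 15 tested genes of macrophage identity were lower and 1 higher (median -1.06). Markers of other cell types were called there as well. Of 6 plasmacytoid markers 4 were higher and 0 lower (median 1.17). Of 7 NK cell markers without Ncr1, 6 were lower and 1 higher (median -3.02), of 6 T cell markers 4 were lower and 0 higher (median -2.34), and of 9 cDC2 markers without Flt3 and Cd209a, 0 were lower and 7 higher (median 1.01). The part of these cell types in the members' contrast was not tested. Each member stayed called without any 1 library, while the count over all genes, 2374, was 1349 without the WT library and 1258 without the sGSN-/- library.

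Barcodes with Ncr1 only serve as a reference of another cell type, and the source of the members' UMIs in them was not tested. With none of the 4 genes all 7 members were higher than in them, in 3 of 3 libraries, with log2 fold changes from 3.32 (Ms4a7, SE 0.53, adjusted p = 1.6e-05) to 3.99 (Apoe, SE 0.32, adjusted p = 1.4e-09), where 36.1% of all genes were called higher. With Cd209a and Flt3, 5 members were called higher than with Ncr1 only, each in 3 of 3 libraries, where 35.9% of all genes were. These were C1qa at 1.17 (SE 0.24, adjusted p = 0.00027), C1qb at 1.20, C1qc at 1.04, Trem2 at 1.11 and Apoe at 0.76 (SE 0.29, adjusted p = 0.027). Ms4a7 at 0.11 (SE 0.58, adjusted p = 0.88) and Pf4 at 0.70 (SE 0.60, adjusted p = 0.3) did not pass. The call of Apoe was lost without the WT library (0.86, adjusted p = 0.081), without the sGSN-/- library (0.57, adjusted p = 0.11), with a minimum of 2000 genes (0.55, adjusted p = 0.11) and without the highest Scrublet scores (1.22, adjusted p = 0.059). With barcodes thinned to 4000 UMIs, shallower barcodes left out and groups set again, 2 of these 5 were called, C1qb and Apoe, with C1qa at 0.45 (adjusted p = 0.2), C1qc at 0.50 (adjusted p = 0.23) and Trem2 at 0.73 (adjusted p = 0.19). With Xcr1, again 5 members were higher than with Ncr1 only, each in 3 of 3 libraries, where 35.2% of all genes were, from 1.11 (C1qc, SE 0.25, adjusted p = 0.00062) to 1.43 (Apoe, SE 0.30, adjusted p = 0.00026). Ms4a7 at 0.73 (SE 0.56, adjusted p = 0.25) and Pf4 at 0.95 (SE 0.58, adjusted p = 0.15) did not pass, and Pf4 was called with the library as a block, at 0.93 (adjusted p = 0.029), and without the WT library, at 1.19 (adjusted p = 0.039). Of the barcodes in the Xcr1 group, 28.2%, 22.8% and 20.8% were among the highest Scrublet scores, at median depths of 21606, 23363 and 20008 UMIs. Without such barcodes Apoe was not called there, at 1.24 (adjusted p = 0.059), and Ms4a7 was, at 1.36 (adjusted p = 0.015).

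Co-detection with Flt3 was counted barcode by barcode at 4000 UMIs, outside the table, and carries no test. At this depth barcodes with more C1q UMIs had Flt3 less often, with an exception given below. Of barcodes with 0 C1q UMIs 22.7%, 20.9% and 20.98% had a Flt3 UMI, and of those with 20 or more 6.004%, 5.88% and 6.87% did, which is 67 of 1116, 23 of 391 and 38 of 553 barcodes. The mean share was 21.5% ± 1.01 at 0 C1q UMIs, 17.1% ± 2.82 at 1, 13.4% ± 1.29 at 2 to 4, 9.32% ± 3.14 at 5 to 9, 10.2% ± 1.41 at 10 to 19 and 6.25% ± 0.540 at 20 or more. The bins of 5 to 9 and 10 to 19 overlapped, and between them the share was higher in the latter in the WT and sGSN-/- libraries, while at each other step it was lower in 3 of 3 libraries. Barcodes with Ncr1, which should lack Flt3, had it in 2.31% (1.30 to 3.78), 3.82% (2.68 to 5.27) and 3.84% (2.54 to 5.53), below the point value of each C1q bin of the same library. The interval of the highest C1q bin overlapped with that of the Ncr1 barcodes in the sGSN-/- library (3.77 to 8.70) and in the sGSN-/-Clec9a-/- library (4.91 to 9.31), and not in the WT library (4.68 to 7.56). At this depth each member showed the same direction in its mean. Flt3 was seen in 9.41% ± 0.498 of barcodes with C1qa against 20.7% ± 1.04 without it, in 11.7% ± 0.582 with Apoe against 19.7% ± 1.03 without, in 6.63% ± 0.536 with Trem2 against 20.2% ± 1.02 without, in 6.29% ± 0.839 with Ms4a7 against 18.99% ± 0.743 without, and in 8.35% ± 1.71 with Pf4 against 18.6% ± 0.643 without. The dendritic cell markers went the other way, with Flt3 in 39.8% ± 1.19 of barcodes with Xcr1 against 16.5% ± 0.898 without it, and in 24.3% ± 0.816 with Cd209a against 15.9% ± 0.440 without. Without thinning the order was less regular. The bin edges stayed the same at the greater depth, so the bins are not alike. With 20 or more C1q UMIs there were then 1944, 776 and 1076 barcodes, against 1116, 391 and 553 at 4000 UMIs. From 0 to 20 or more C1q UMIs the shares with Flt3 were 48.1%, 46.2%, 44.7%, 29.6%, 37.04% and 27.3% in WT, 39.5%, 41.5%, 37.5%, 41.03%, 25.3% and 29.5% in sGSN-/- and 40.3%, 39.6%, 39.7%, 30.5%, 20% and 31.04% in sGSN-/-Clec9a-/- barcodes. In that setting Apoe ran the other way in sGSN-/- barcodes, with Flt3 in 40.9% with Apoe and 37.4% without, and it was near even in sGSN-/-Clec9a-/- barcodes, at 37.4% and 37.96%. The other 6 members kept the direction in 3 of 3 libraries.

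**Figure D2:**
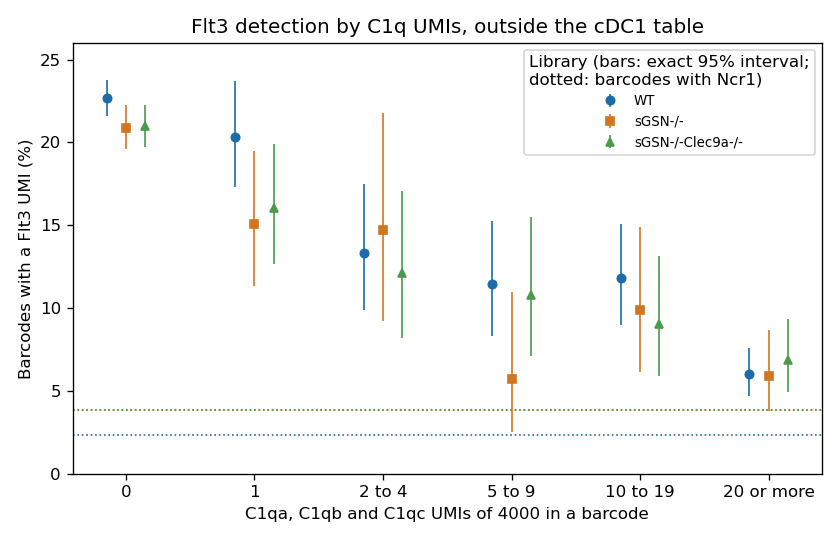
Share of barcodes outside the cDC1 table with a Flt3 UMI (y axis, %) by the number of C1qa, C1qb and C1qc UMIs in the barcode (x axis), all at 4000 UMIs a barcode, 1 point a library with its exact 95% Clopper-Pearson interval. The dotted lines are the shares in barcodes with Ncr1. The shares lie at 22.7%, 20.9% and 20.98% with 0 C1q UMIs and at 6.004%, 5.88% and 6.87% with 20 or more.

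The barcodes with both 20 or more C1q UMIs and Flt3 were looked at further. They carried Csf1r, the macrophage growth factor receptor, at 345, 380.3 and 301 CPM, near the 385, 386 and 368 CPM of barcodes with as much C1q and no Flt3, and above the 79.8, 52.6 and 75.4 CPM of barcodes with Flt3 and 0 C1q. Adgre1, the gene of F4/80, was at 52.3, 90.1 and 41.98 CPM, against 94.1, 91.9 and 85.9 CPM in high-C1q barcodes without Flt3. In Flt3 barcodes with 0 C1q Adgre1 was at most 5.37 CPM in any library. The dendritic cell markers had higher point values in the barcodes with both than in high-C1q barcodes without Flt3. Xcr1 was at 30.2, 20.02 and 28.95 CPM against 5.298, 3.82 and 7.94 CPM. Cd209a was at 44.2, 40.03 and 123 CPM against 26.8, 32.4 and 42.8 CPM. Flt3 barcodes with 0 C1q were higher still, with Xcr1 at 69.2, 99.7 and 110.5 CPM and Cd209a at 365, 249 and 315 CPM. No interval is given for these levels, and the sGSN-/- values rest on 23 barcodes with both. Of the barcodes with both, 92.5%, 91.3% and 89.5% had a single Flt3 UMI of 4000, against 77.3%, 74.3% and 78.3% of the Flt3 barcodes with 0 C1q. They were among the highest Scrublet scores in 19.4%, 13.04% and 23.7% of cases, against 5.62%, 4.62% and 4.27% of the high-C1q barcodes without Flt3 and 8.31%, 12.1% and 9.92% of the Flt3 barcodes with 0 C1q. In the barcodes with 20 or more C1q UMIs as a whole, Apoe was seen in 61.6%, 58.1% and 61.7%, Trem2 in 67.1%, 66.5% and 63.3%, Ms4a7 in 37.4%, 29.7% and 28.0% and Pf4 in 17.0%, 15.1% and 14.8%. With 0 C1q UMIs the same genes were seen in 10.1%, 6.08% and 7.37% (Apoe), in 4.21%, 2.31% and 3.18% (Trem2), and in under 2% (Ms4a7 and Pf4) of barcodes. Cd209a went the opposite way, seen in 5.20%, 6.39% and 7.23% of high-C1q barcodes and in 41.6%, 29.5% and 35.3% of those with 0 C1q. The part of doublets and of free RNA in the barcodes with both genes was not tested.

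Inside the cDC1 table the members' means over the 3 libraries were below those with Ncr1 only in all 12 clusters, and most clusters overlapped. Since the clusters were called on these cells' own genes, the values are a description. The sum of the 3 C1q genes was at 33.2, 15.5 and 22.4 CPM over all cDC1s. In the clusters of early cDC1s it was 53.2 ± 23.1 (cluster 4) and 15.7 ± 4.75 CPM (cluster 1). Resting cDC1s ran from 16.1 ± 3.91 (cluster 0) to 24.4 ± 6.44 CPM (cluster 6). The activated clusters gave 20.8 ± 8.04 (cluster 7), 20.6 ± 14.2 (cluster 9) and 14.7 ± 4.07 CPM (cluster 10). Cluster 8, also activated, stood at 298, 20.4 and 25.8 CPM, so its mean of 115 ± 159 CPM rests on the WT library. There 302 of the 1085 C1q UMIs of all WT cDC1s fell in the 72 barcodes of cluster 8, and 58.3% of them were in 1 barcode with 176 C1q and 39 Apoe UMIs of 27374 in total, marked by Scrublet. Without that barcode the WT value of cluster 8 was 127.8 CPM, and the next barcode held 59 of the C1q UMIs that remained. Apoe in the same cluster was at 259, 18.7 and 27.8 CPM, in WT above the 129 CPM with Ncr1 only. Cluster 4 also held barcodes with many C1q UMIs, 27, 17 and 53 in the highest of each library, and without these its C1q sum was 39.1, 24.0 and 49.2 CPM. Scrublet marked 11.4%, 4.17% and 13.9% of cluster 4 and at most 4.76% of any other cluster in any library. The paper describes cluster 11 as likely dying cells. Its 11, 18 and 9 barcodes had 4, 6 and 5 C1q UMIs, at median depths of 2378, 3053 and 2575 UMIs. On these few UMIs cluster 11 stood highest of the clusters by mean, at 145 ± 54.7 CPM. Trem2 was at 3.49 ± 2.69 CPM in cluster 4 and at 10.7 ± 18.6 CPM, from 1 UMI, in cluster 11, and Ms4a7 and Pf4 gave 51 and 48 UMIs over all 5694 cDC1s. Ms4a7 was at 0 UMIs in clusters 9 and 10, and Pf4 in clusters 5, 10 and 11.

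Within the cDC1s the mix of the 7 genes differed from that outside the table. Apoe made up 48.2% ± 2.75 of the members' UMIs in the cDC1s, 29.6% ± 0.682 with none of the 4 genes and 24.7% ± 3.13 with Ncr1 only. The UMIs of Apoe per UMI of C1q were 1.003, 1.12 and 0.983 in the cDC1s, 0.432, 0.425 and 0.411 outside the table and 0.340, 0.318 and 0.427 with Ncr1 only. The cDC1s lay above both other groups in every library. Among clusters the Apoe share was 59.97% ± 3.97 in cluster 0 and 38.5% ± 1.09 in cluster 1, which did not overlap. Resting clusters 2 (55.8% ± 7.26) and 3 (54.2% ± 5.66) overlapped with cluster 0, as did activated clusters 9 (53.6% ± 19.9) and 10 (50.7% ± 14.1). Cluster 4 (37.4% ± 9.11) overlapped with cluster 1. Cluster 4, at 45.4%, 39.4% and 27.5%, was in the sGSN-/-Clec9a-/- library below the group with none of the 4 genes, and cluster 11 was at 13.1% ± 12.5 from at most 2 Apoe UMIs a library. Cluster 0 carried Apoe at 30.01, 23.0 and 26.5 CPM, while cluster 1 carried it at 14.7, 8.50 and 10.9 CPM. The thinned share of barcodes with Apoe was 10.1%, 8.42% and 8.19% in cluster 0 and 3.38%, 3.20% and 3.31% in cluster 1, against the 10.3%, 4.58% and 6.77% with Ncr1 only given above. C1qa, C1qb and C1qc kept similar parts of their own sum, with 36.0%, 44.6% and 19.5% on average with none of the 4 genes, 34.5%, 45.1% and 20.4% with Ncr1 only and 33.7%, 48.8% and 17.4% in the cDC1s.

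**Figure D3:**
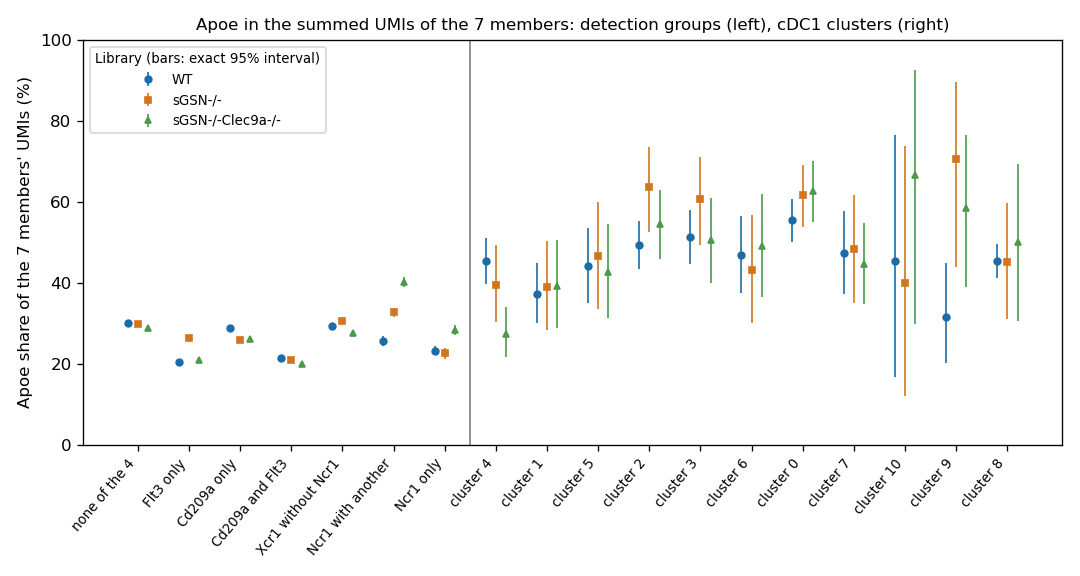
Share of Apoe in the summed UMIs of the 7 genes (y axis, %) in the detection groups outside the cDC1 table (left of the line) and in 11 cDC1 clusters (right), 1 point a library with its exact 95% Clopper-Pearson interval. Cluster 11, with at most 2 Apoe UMIs a library, is not drawn. Cluster 0 is at 59.97% ± 3.97 and cluster 1 at 38.5% ± 1.09. Clusters 2 (55.8% ± 7.26) and 3 (54.2% ± 5.66) overlap with cluster 0.

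Genotypes can be set side by side but not tested, with 1 library each. Outside the table the C1q sum was 1750.0 CPM (1743 to 1757) in WT, 1241 CPM (1233 to 1248) in sGSN-/- and 1490 CPM (1482 to 1498) in sGSN-/-Clec9a-/- barcodes. Apoe was at 755, 528 and 612 CPM, Trem2 at 84.8, 57.4 and 74.5 CPM, Ms4a7 at 54.3, 22.8 and 32.8 CPM and Pf4 at 26.7, 12.1 and 17.5 CPM. Each of the 7 genes was highest in the WT and lowest in the sGSN-/- library, outside the table and in its cDC1s. With none of the 4 markers WT was again highest for each gene, and for Apoe the sGSN-/-Clec9a-/- library was lowest. The make-up of the barcodes differed as well. Barcodes with none of the 4 genes were 21.2%, 17.7% and 20.3% of those kept and barcodes with Ncr1 only 6.66%, 16.1% and 10.7%. With 1 pool a genotype, genotype, sort and capture cannot be told apart.

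Other genes of these roles, from lists set by name, were read in the first contrast, none of the 4 genes against Flt3 only, as counts called beside the 12.2% of all genes called higher there. Of 15 tested genes of macrophage identity 12 were higher and 1 lower, with a median log2 fold change of 1.18. Mertk, a receptor for dying cells, rose by 1.87 (SE 0.25, adjusted p = 2.2e-05) and the transcription factor gene Maf by 1.84, Cd68 rose by 0.42, and Timd4 fell by 1.78. The summed level of this list was 2044, 1744 and 1774 CPM with none of the 4 genes, 1181, 1101 and 1059 CPM with Flt3 only and 225, 142 and 196 CPM with Ncr1 only. C5ar1, whose product CD88 the sort was set to leave out, was at 62.6, 46.5 and 48.0 CPM with none of the 4 genes and at 0.337, 0.213 and 0.187 CPM in the cDC1s.

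Genes that work with TREM2, with Apoe and with C1q were counted in the same contrast, beside 12.2% of all genes called higher and 8.94% lower. Of the 10 genes of TREM2 signalling 3 were higher and 1 lower, with a median of 0.07. Adam10 rose by 0.62 and Adam17 by 0.49, and their proteases shed TREM2 from the cell surface. Hcst rose by 0.89, and Vav3 fell by 0.27, while Tyrobp was not called in this contrast. In another contrast, none of the 4 genes against Ncr1 only, Tyrobp was higher at 0.34 (SE 0.09, adjusted p = 0.0019). Its levels there were 2150, 1936 and 2051 CPM against 1581, 1649 and 1981 CPM with Ncr1 only. Of 21 tested genes of lipid handling 17 were higher and 1 lower, with a median of 0.80, among them Gpnmb at 2.84 (SE 0.56, adjusted p = 0.0011), Apoc1 at 2.67, which lies beside Apoe, and Lgals3 at 0.61, while Fabp5 fell by 1.12. Of 12 tested complement genes 5 were higher and 0 lower, with a median of 0.69. These include Cfb, of the alternative pathway, at 1.74 (SE 0.41, adjusted p = 0.0039), Cd55, which limits complement on cells, at 2.07, Cd93 at 0.81 and Itgam at 0.80. In the Ms4a family 5 of 7 were higher, with a median of 0.74, led by Ms4a4b at 2.13 and Ms4a8a at 1.97, with Ms4a6d at 0.74 and Ms4a6b at 0.51. Ms4a4b was at 41.9, 175 and 115 CPM with none of the 4 genes and at 975, 971 and 984 CPM with Ncr1 only. Cd55 and Hcst were likewise lower with none of the 4 genes than with Ncr1 only in 3 of 3 libraries, at -4.11 (SE 0.34, adjusted p = 1.6e-09) and -2.10 (SE 0.14, adjusted p = 9.9e-11), and Maf did not pass in that contrast, at 0.40 (SE 0.21, adjusted p = 0.099). Of 7 chemokines listed beside Pf4 5 were higher, with a median of 1.12, including Ccl12 at 2.0, Cxcl1 at 1.77, Cxcl2 at 1.12 and Ccl7 at 1.09. Among barcodes with Cd209a, where 4.47% of all genes were called, the Flt3 contrast called 2 of 15 genes of macrophage identity, 2 of 10 of TREM2 signalling (1 higher and 1 lower), 0 of 21 of lipid handling, 0 of 12 of complement, 0 of 7 of the Ms4a family and 1 of 7 chemokines. In the test of the difference between the contrasts, where 1.42% of all genes were called, 3 of the 21 genes of lipid handling (2 higher and 1 lower) and 1 of the 10 of TREM2 signalling were called, and 0 of macrophage identity, complement, the Ms4a family and the chemokines.

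Markers of other cell types moved in the same contrast. Of 8 monocyte markers 5 were higher and 1 lower, with a median of 1.13, from Vcan at 2.90 and F13a1 at 2.26 to Ccr2 at 0.60, while Plac8 fell by 1.06. Their summed level was 2001, 2044 and 2383 CPM against 1327, 1457 and 1663 CPM with Flt3 only, led by Fn1 at 1004, 929 and 1225 CPM. Of 7 NK cell markers, without Ncr1, 6 were higher and 1 lower, with a median of 2.97, including Gzma at 3.50, Klra8 at 3.22 and Nkg7 at 2.70, while Klrd1 fell by 0.88. The NK list summed to 380.5, 1124 and 737 CPM with none of the 4 genes and to 507, 486 and 463 CPM with Flt3 only, and its defining marker Ncr1 is at 0 in both by the grouping. Of 6 T cell markers 4 were higher and 1 lower, with a median of 1.84, including Cd3g at 2.20, Cd3e at 2.08 and Trac at 1.72, while Cd4 fell by 1.71, and the list summed to 41.3, 170.3 and 132 CPM against 17.9, 52.3 and 49.7 CPM. The sort was set to remove cells with NK1.1 and CD3e. Dendritic cell genes are counted without Flt3, Xcr1 and Cd209a, which the grouping sets, and beside the 8.94% of all genes called lower. Of the other 7 cDC1 markers 5 were lower and 0 higher (median -0.95, Itgae at -2.15, Naaa at -0.83 and Batf3 at -0.79), and of the other 9 cDC2 markers 5 were lower and 3 higher (median -0.56, Zbtb46 at -1.62, Sirpa at 0.52). Of 6 plasmacytoid markers 4 were lower (median -1.48), including Ccr9 at -2.03, Siglech at -1.92, Cox6a2 at -1.66 and Tcf4 at -0.60. Of 6 cycling genes 2 were lower (median -0.41), Pclaf at -0.57 and Stmn1 at -0.41. The lists of B cells (0 of 1 called, at 0.19), neutrophils (Csf3r alone, higher at 1.89) and fibroblasts or tumour cells (Sparc alone, higher at 2.38) had 1 tested gene each. Of the platelet markers, which bear on Pf4, 0 passed the filter, and their summed level with none of the 4 genes was 0.901, 2.30 and 0.889 CPM. The part of these cell types in the members' contrast was not tested.

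Genes most like the members were sought over 19 points, the 7 detection groups and 12 cDC1 clusters with the libraries pooled, by Pearson's r of log2(CPM + 1) over 7475 genes. The points share libraries and differ in depth and size, so r describes and tests nothing. Among the 5 genes closest to the C1q sum were C3ar1 (r = 0.975), Cxcl2 (0.971) and Slc39a14 (0.965). For Apoe they were C5ar1 (0.985), Sirpb1c (0.980), Tmem119 (0.978), Apoc2 (0.973) and Itgb5 (0.966). Those close to Trem2 include Fn1 (0.979), Clec5a and Cpd, those close to Ms4a7 include C3ar1 (0.963), Cpd and Pgd, and Pf4 was closest to Stab1 (0.980), Pdpn, Clec4d, Itgb5 and C5ar1. Among the members, r with the C1q sum was 0.970 for Apoe, 0.979 for Trem2, 0.981 for Ms4a7 and 0.928 for Pf4.

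The C1q genes lie side by side and the other members apart, by the GENCODE M21 annotation of GRCm38 (mm10). C1qb (chromosome 4, 136880129 to 136886187), C1qc (136889804 to 136893065) and C1qa (136895917 to 136898803) lie on the minus strand in a span of 18675 bp that touches these 3 genes only. Apoe (chromosome 7, 19696109 to 19699188, minus strand) lies between Apoc1 and Tomm40, and Trem2 (chromosome 17, 48346401 to 48354147, plus strand) is followed by Treml1. Ms4a7 (chromosome 19, 11321039 to 11336146, minus strand) lies between Ms4a14 and Ms4a4a, and Pf4 (chromosome 5, 90772435 to 90773383, plus strand) follows Ppbp. Each of the 7 is protein-coding, and 0 overlap another gene of the annotation.

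Since the members moved together, the promoters of C1q genes, of the lipid carrier and of the lipid receptor are shown as RefSeq gives them for GRCm38.p6, 300 bases from 250 before to 50 after the start. Of the 7 members 6 had an entry, and C1qa had none. Capitals mark letters searched on both strands. They are GAGGAA (reverse TTCCTC), found in sites of ETS factors such as PU.1, and TGCTGA (reverse TCAGCA). The letters TATAAA (reverse TTTATA) were searched as well. These 6 members have 9 entries, of which 7 hold GAGGAA or its reverse, with at least 1 a member, and 28.3% of all 32851 promoters of this length hold it. TGCTGA or its reverse was in the entry of 1 member, C1qb, and in 19.5% of all promoters, and TATAAA or its reverse in an entry of 1 member, Apoe, not the one shown, where both overlap, and in 13.6%. A match is a description of letters only. The sequences are those of C1qb (chr4:136886151-136886450, minus strand), C1qc (chr4:136892865-136893164, minus strand), Apoe (chr7:19699139-19699438, minus strand) and Trem2 (chr17:48346151-48346450, plus strand), 5′ to 3′.
C1qb: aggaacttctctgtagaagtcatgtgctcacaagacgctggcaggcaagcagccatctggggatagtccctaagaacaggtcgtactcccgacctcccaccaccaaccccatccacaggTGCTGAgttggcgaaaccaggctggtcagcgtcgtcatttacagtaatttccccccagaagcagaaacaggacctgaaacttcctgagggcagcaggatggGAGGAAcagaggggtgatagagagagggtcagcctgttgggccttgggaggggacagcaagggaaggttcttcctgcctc
C1qc: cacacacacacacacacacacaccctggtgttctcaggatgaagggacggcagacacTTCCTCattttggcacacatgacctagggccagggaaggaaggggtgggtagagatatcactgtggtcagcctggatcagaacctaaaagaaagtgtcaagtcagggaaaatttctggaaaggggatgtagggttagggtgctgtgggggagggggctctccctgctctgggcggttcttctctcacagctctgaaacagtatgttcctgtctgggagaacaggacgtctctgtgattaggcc
Apoe: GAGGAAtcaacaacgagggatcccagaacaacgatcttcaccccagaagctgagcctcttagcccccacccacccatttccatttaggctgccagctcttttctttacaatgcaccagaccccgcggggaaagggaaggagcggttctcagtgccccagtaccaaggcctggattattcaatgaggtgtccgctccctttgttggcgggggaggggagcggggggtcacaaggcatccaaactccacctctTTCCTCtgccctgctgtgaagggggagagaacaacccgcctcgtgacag
Trem2: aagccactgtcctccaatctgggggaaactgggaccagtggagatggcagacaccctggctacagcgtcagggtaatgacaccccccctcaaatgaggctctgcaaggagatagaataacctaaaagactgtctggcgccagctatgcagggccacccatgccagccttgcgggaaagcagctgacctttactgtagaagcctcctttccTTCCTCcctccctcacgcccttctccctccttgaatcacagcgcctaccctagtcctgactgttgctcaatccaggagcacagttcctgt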

How the data were processed

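The authors deposited raw UMI counts for each library, made with Cell Ranger (version not given in the labels) on mm10 (GRCm38), with no normalisation, and a table of cDC1s called with Seurat (4.0.0 in the labels, while the methods text gives an earlier version of Seurat and that number as the version of R). How reads that map to several genes were treated was not stated in those sources. The counts of barcodes with at least 1000 genes were summed by library and detection group, which gave 21 sums, and were fitted in 1 model with edgeR 4.0.16 in R 4.3.3 (TMM factors, filterByExpr, quasi-likelihood F-test with 14 residual degrees of freedom, Benjamini-Hochberg adjustment over all genes tested, threshold 0.05). Standard errors were taken as the size of the log2 fold change over the root of F. P-values measure only the spread between libraries, which come from pooled mice of different genotypes. Sums of 1 library come from the same pool and are paired by design, with correlations of their deviations from 0.0978 to 0.428, and a fit with a block for each library was run beside it. Other alternatives were DESeq2 1.42.0, no TMM factors, no filter, other gene minima, a mitochondrial limit of 16.7%, thinning and each library left out. Scrublet's own threshold called 466, 0 and 0 barcodes, so the 6% with the highest score in each library, 765, 490 and 556 barcodes, were left out as an alternative and otherwise kept. Levels, shares and thinning were computed with Python 3.11.15, numpy 2.4.6, scipy 1.17.1 and scanpy 1.11.5, and figures drawn with matplotlib 3.10.9. The members and lists were chosen with earlier results of these data known. Named genes are the members and, of each of the 17 lists, the called genes with the 2 highest and 2 lowest log2 fold changes in the first contrast, with sort and cell type markers, and genes among the 5 with the highest r to each member. A few genes that these rules select are left out of the text. The lists are macrophage identity, TREM2 receptor signalling, lipid-handling macrophage genes, complement partners of C1q, the Ms4a family, chemokines beside Pf4, and markers of monocytes, cDC2s, cDC1s, NK cells, T cells, plasmacytoid cells, B cells, neutrophils, platelets, fibroblasts and tumour cells, and cycling.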

Additional observations from a re-analysis of the deposited data

How the results depend on the processing

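Of 181 values under alternative settings for the counts and main values, 150 kept their direction and side of the threshold, or stayed within the limits set for a count or a value, 18 became weaker, 11 stronger, 2 moved and 0 reversed. The members' log2 fold changes kept their call in 559 of 588 values, with 10 weaker and 19 stronger, those of other named genes in 542 of 594, with 52 weaker, and 162 of 169 levels and shares stayed within 1 SD of the libraries, with 7 moved. With barcodes thinned to 4000 UMIs and grouped again, the genes called were 1450 for Flt3 without Cd209a, 111 for Flt3 with Cd209a, 52 for the difference of these contrasts, and 5867, 5679 and 5606 for none of the 4 genes, Cd209a and Flt3, and Xcr1, each against Ncr1 only, and the members called were 4 for Flt3 with Cd209a, 1 for the difference and 2 for Cd209a and Flt3 against Ncr1 only. With the library as a block, 1605 genes and 3 members were called for Flt3 with Cd209a and 629 genes and 2 members for the difference, and apart from the members' calls given in the report the block changed no other call of a member and moved no other count over 1.5 times. For Flt3 with Cd209a, 1 member was called without TMM factors (540 of all genes), 2 with DESeq2 (727 genes) and 2 with no filter (626 genes). For the difference, 331 genes were called with DESeq2 and 94 without the highest Scrublet scores. Leaving out 1 library at a time gave 1579 to 1864 genes for Flt3 without Cd209a, 15 to 201 genes and 0 to 1 members for Flt3 with Cd209a, 1 to 60 genes for the difference and 1258 to 1603 genes for Cd209a without Flt3. The Flt3 share at 20 or more C1q UMIs minus that at 0 was -15.3 percentage points, -13.4 without thinning and -10.2 at 2000 UMIs. The bin edges were the same at each depth, so the bins are not alike. Without TMM factors the median log2 fold change of all genes shifted to -0.112 and -0.119 for none of the 4 genes and for Cd209a and Flt3 against Ncr1 only. Fewer samples enter when a library is left out, and the cause of the other changes was not tested.

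Detection groups depend on depth, since a barcode can miss Flt3 or Cd209a by sampling, and the grouping does not name cell types. Free RNA and joint capture were not measured, and the members' UMIs in Ncr1 barcodes were only counted. Each genotype has 1 library, so genotype, pool and capture cannot be told apart. Pf4 and Ms4a7 rest on few UMIs in the cDC1s, and whether their values near 0 there differ from background was not tested.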
